A study of Mus musculus with 4 samples.

Results

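The S100 genes described here are S100a4, S100a6, S100a8, S100a9, S100a10 and S100a11, which were found by symbol in all 4 libraries and are 6 of the 31914 genes of the joined feature lists. The study followed the origin of lymphoid tissue inducer (LTi) cells, innate lymphocytes of the embryo from which lymph nodes begin, in mice labelled C57 Bl/6. Fetal liver and embryonic periphery were taken at E13.5 and at E14.5, CD45+ cells were enriched on magnetic beads, and live cells that were CD45+, F4/80- and IL7Ra+ were sorted. The labels name no allele, transgene or treatment, and each of the 4 groups is 1 library with no replicate, so no significance test was made. How many embryos were pooled is not given in the sources used here. The 10x Genomics Chromium 3' kits were version 3 for fetal liver and version 2 for periphery, so that kit and tissue cannot be told apart in any comparison of tissues.

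S100 proteins are small calcium sensors with paired EF-hand motifs that mostly work as dimers and change shape when calcium binds. S100A8 and S100A9 join into calprotectin, an abundant cytosolic protein of neutrophils and monocytes that withholds metal ions from microbes and is released in inflammation. S100A4 binds non-muscle myosin and is linked to cell motility, and S100A6 (calcyclin) is linked to proliferation and stress responses. S100A10 is insensitive to calcium and forms a complex with annexin A2 at the plasma membrane, while S100A11 binds annexins A1 and A2 and takes part in membrane repair.

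All 6 genes lie on mouse chromosome 3 (GRCm38), where 14 S100 genes of the annotation are found. S100a4 (ENSMUSG00000001020) spans 90603771 to 90606045 on the plus strand, and S100a6 (ENSMUSG00000001025) spans 90612882 to 90624181 on the same strand, 6836 bases further on. S100a8 (ENSMUSG00000056054, 90668978 to 90670035, plus strand) and S100a9 (ENSMUSG00000056071, 90692632 to 90695721, minus strand) are 22596 bases apart and read towards each other. S100a11 (ENSMUSG00000027907, 93520488 to 93526287, plus strand) and S100a10 (ENSMUSG00000041959, 93555080 to 93564643, plus strand) form a pair 2824766 bases from S100a9. Gm42674 overlaps S100a4 on the same strand and had 0 UMIs in all 4 libraries.

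Promoter sequences from RefSeq (GRCm38.p6) were matched by symbol for 5 of the 6 genes, and 3 motifs were searched on both strands in the 250 bases before the start: C/EBP (TTGCNNAA), AP-1 (TGANTCA) and PU.1 (GAGGAAG). The 4 windows below are shown because S100a8 and S100a9 shared a pattern across cells, S100a4 had another and S100a11 was found in most cells. Each is 5′ to 3′ on the strand of its gene, and motif matches are in capitals. They are chr3:90668821-90668977 (plus strand), chr3:90695722-90695971 (minus), chr3:90603520-90603769 (plus) and chr3:93520246-93520487 (plus) in the order printed. Bases of a window that fall inside the annotated gene were left out.
S100a8: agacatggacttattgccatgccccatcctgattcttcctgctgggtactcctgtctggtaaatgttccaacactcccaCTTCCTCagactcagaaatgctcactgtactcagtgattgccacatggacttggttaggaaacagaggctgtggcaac
S100a9: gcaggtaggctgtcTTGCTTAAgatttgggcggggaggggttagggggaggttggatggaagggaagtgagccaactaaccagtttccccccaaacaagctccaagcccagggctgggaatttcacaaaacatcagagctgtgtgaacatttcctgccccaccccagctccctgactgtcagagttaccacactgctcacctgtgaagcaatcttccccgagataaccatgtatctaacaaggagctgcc
S100a4: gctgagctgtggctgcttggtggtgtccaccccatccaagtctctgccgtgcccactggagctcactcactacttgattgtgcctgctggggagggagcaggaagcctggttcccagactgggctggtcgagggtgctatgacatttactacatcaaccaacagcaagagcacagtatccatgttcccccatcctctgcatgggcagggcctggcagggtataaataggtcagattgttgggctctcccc
S100a11: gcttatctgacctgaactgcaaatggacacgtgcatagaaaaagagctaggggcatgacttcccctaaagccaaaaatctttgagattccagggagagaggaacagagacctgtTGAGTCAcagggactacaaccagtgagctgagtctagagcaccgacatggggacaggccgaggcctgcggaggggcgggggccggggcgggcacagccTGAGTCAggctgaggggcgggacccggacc
The S100a9 window held 1 C/EBP match (TTGCTTAA, 236 to 229 bases before the start), and 9.56% of all 32851 promoter windows held that motif. In S100a8 the reverse complement of the PU.1 letters (CTTCCTC) stood 171 to 165 bases before the RefSeq start, a motif in 10.6% of all windows. S100a11 held 2 AP-1 matches (TGAGTCA, 136 to 130 and 38 to 32 bases before the start), against 6.75% of all windows with at least 1. Neither S100a4 nor S100a6 held any of these letters, which says nothing on whether such factors act there. No match overlapped another.

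After filtering, fetal liver had 10263 cells at E13.5 and 10768 at E14.5, and periphery had 4165 and 4354. Their median depths were 18450, 15586, 11081 and 8503 unique molecular identifiers (UMIs, 1 per captured transcript molecule). Pairs of libraries shared between 0 and 33 barcodes. The sorted gene Il7r was found in 78.5 to 87.7% of cells. Summed over 9 B lineage markers the levels were 654, 3624, 1133 and 1806 UMIs per 1000000. Cells were clustered without the S100 genes, and clusters were named "like" a cell type from marker genes.

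Levels are given in CPM, a gene's UMIs per 1000000 UMIs of the cells summed, with the exact 95% Poisson interval in parentheses, which covers counting error only. Folds are log2 ratios after adding 5 CPM, from which the median over every measured gene of that comparison was subtracted. Genes reaching 10 CPM on at least 1 side of a comparison were taken as measured, and a fold of 1 log2 unit or more either way is called past 2-fold. Between the stages that median was -0.03 for fetal liver and 0.23 for periphery. Between the tissues it was -0.41 at E13.5 and -0.17 at the later stage. All 6 genes were measured in all 4 comparisons of libraries.

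**Figure D1:**
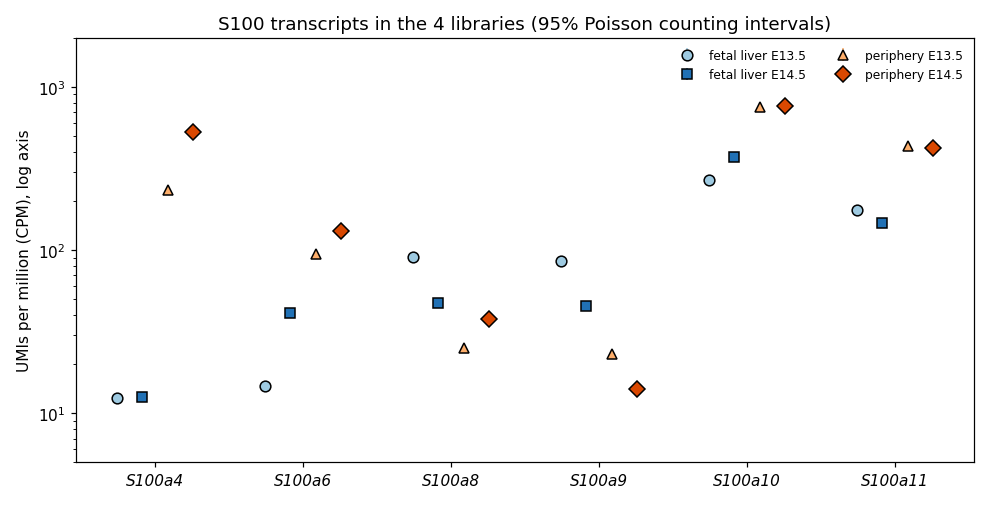
Level of each S100 gene in each library (CPM, log axis; points with 95% Poisson intervals, which are mostly narrower than the point). S100a4 spans from 12.5 CPM in fetal liver to 532 CPM in E14.5 periphery, while S100a8 and S100a9 are highest in E13.5 fetal liver.

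Between the tissues, S100a4, S100a6, S100a10 and S100a11 were higher in periphery at both stages, and S100a9 was lower at both. At E13.5 the count past 2-fold was 4 higher and 2 lower of 6, where 23.1% of 7986 measured genes passed either way, 12.6% higher and 10.5% lower. At E14.5 it was 4 higher and 1 lower, where 23.7% of 8117 genes passed, 12.3% higher and 11.4% lower. The median of the 6 folds was 1.78 at E13.5 and 1.44 at E14.5, where the median of all measured genes is 0 by construction. At E13.5 the S100a8 and S100a9 calls were lost with the mean of each cell's CPM or without LTi-like cells. At E14.5 the S100a9 call was lost with 20 CPM added, with a minimum of 50 CPM in either library or with the mean of each cell's CPM. Without LTi-like cells the E14.5 S100a9 fold was -0.00387, and the S100a8 fold turned from -0.12 to 1.30, past 2-fold higher in periphery.

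Between the stages few of the genes passed 2-fold in the whole libraries. In fetal liver 1 of 6 genes, S100a6, passed 2-fold, where 1.63% of 7742 measured genes did. From the top S100a6 ranked 74, and S100a8 and S100a9, at -0.83 each, ranked 7690 and 7688. In periphery 0 of 6 passed, where 3.77% of 7237 did, and S100a4 was nearest at 0.94. The median of the 6 folds was -0.09 in fetal liver and 0.01 in periphery. The fetal liver call on S100a6 was lost with 20 CPM added or with a minimum of 50 CPM. Without centring, S100a4 in periphery reached 1.17.

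The genes also differed in how their UMIs were spread over cells. The 1% of cells with most UMIs of a gene held 91.2 to 100% of S100a8 and S100a9 in the 4 libraries. For S100a10 and S100a11 the same share was 3.90 to 5.88%. S100a10 had a UMI in 93.4 to 97.0% of cells and S100a11 in 77.8 to 92.2%, lowest in E14.5 fetal liver. S100a4 went from 20.4 and 28.0% in fetal liver to 5.67 and 4.49% in periphery. S100a6 was at 19.8 and 22.8% in fetal liver, below S100a4 there, and at 15.8 and 18.97% in periphery, above it.

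**Figure D2:**
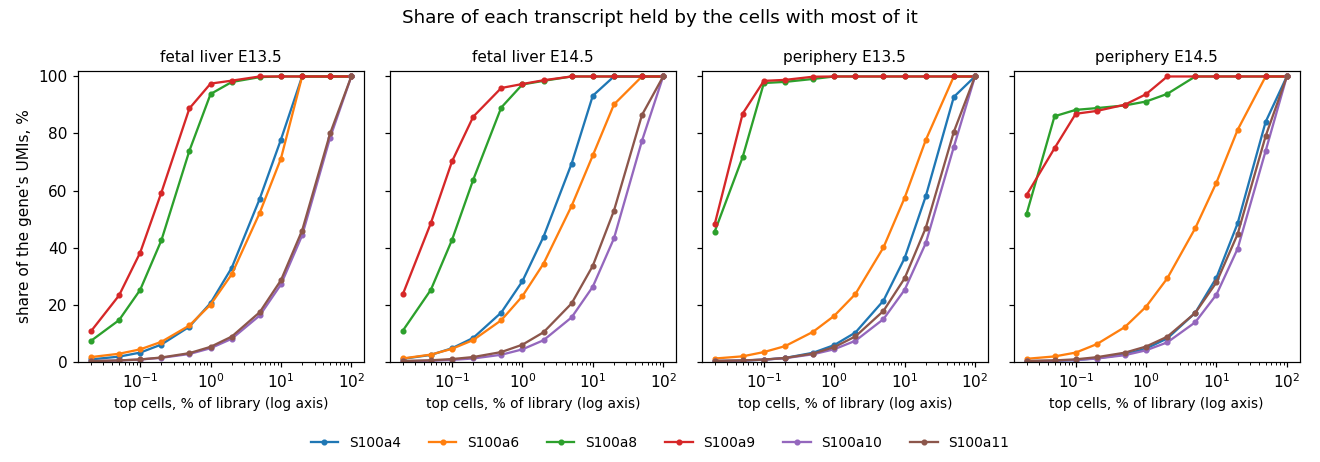
Share of a gene's UMIs (y axis, percent) held by the given share of cells with most of them (x axis, percent of cells, log axis), 1 panel per library and 1 line per gene. The lines of S100a8 and S100a9 are near their maximum at 1% of cells, with 91.2 to 100% of UMIs, while those of S100a10 and S100a11 are at 3.90 to 5.88% there.

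S100a8 and S100a9, the calprotectin subunits, were found in fetal liver almost wholly in 1 cluster. S100a8 was at 90.3 CPM (89.02 to 91.7) in E13.5 fetal liver, 47.4 (46.4 to 48.4) in E14.5 fetal liver, 25.2 (23.8 to 26.6) in E13.5 periphery and 38.0 (36.1 to 39.9) in E14.5 periphery. For S100a9 the levels were 86.3, 45.3, 23.2 and 14.1 CPM in the same order. Both were highest in fetal liver at E13.5, and the E14.5 folds there were -0.83 for each gene, short of 2-fold.

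Cluster FL15 held these transcripts in fetal liver. It had 12 of 13 neutrophil lineage markers, none of which is an S100 gene, and was led by Elane, the gene of neutrophil elastase, and Stfa1. Its 239 cells at E13.5 and 130 at E14.5 made up 2.33 and 1.21% of cells, yet held 97.8 and 94.9% of S100a8 UMIs and 98.1 and 91.8% of S100a9 UMIs. In these cells S100a8 was at 3698 CPM (3644 to 3753) and 3203 CPM (3134 to 3274), and S100a9 at 3544 and 2961 CPM. Within the cluster the stage folds were -0.19 and -0.24, where 0.604% of 7455 measured genes passed 2-fold and 0 of 5 measured S100 genes did. The level within FL15 thus differed little between stages. The level of the whole library at E14.5 was 0.524 of that at E13.5 for both genes. At E14.5 the share of FL15 cells was lower, and that of B lineage-like cells was higher. With B lineage-like cells left out, S100a8 in fetal liver was at 93.1 and 78.2 CPM. The stage folds were then -0.23 for each gene. How much of the library folds came from either share was not tested.

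Transcripts of the sorted receptor were sparse in FL15 cells. Il7r was at 12.9 and 13.2 CPM in neutrophil lineage-like cells, with a UMI in 10.5 and 15.4% of them, against 65.0 to 98.6% of the other named fetal liver classes. Ptprc, which encodes CD45, had a UMI in 71.5 and 57.7% of them. Summed over the library, the 13 neutrophil lineage markers were at 1430 and 927 CPM in fetal liver and at 73.3 and 46.7 CPM in periphery, with none at 0. Most of the fetal liver sums was Mpo, at 826 and 449 CPM, and Prtn3, at 454 and 306 CPM. Both genes also led FL5, an unnamed cluster of 1737 cells, so the sums do not measure FL15 cells alone. How these cells came through the IL7Ra gate was not tested.

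Within FL15 the cells fell along a wide range of S100a8 and S100a9. Of the 239 cells at E13.5, 50 had no UMI of either gene and 124 had 20 or more of both together. At E14.5 the numbers were 23 and 70 of 130 cells. The highest cells held 669 and 480 UMIs of S100a8 and 913 and 1051 UMIs of S100a9.

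The ratio of the subunits' UMIs differed along that range, in the same direction at both stages. Among cells with 1 to 19 UMIs of both genes, S100a8 UMIs outnumbered those of S100a9 by a ratio of 3.91 at E13.5 (65 cells) and 7.03 at E14.5 (37 cells). With 20 to under 200 UMIs the ratio was 2.49 (70 cells) and 2.89 (49 cells). With 200 or more it was 0.879 (54 cells) and 0.793 (21 cells), so that S100a9 had the larger number. Cell by cell, S100a8 was the larger in 50 of 65 and 35 of 37 cells of the lowest range, but in 21 of 54 and 10 of 21 cells of the highest. The ranges are cut from the same UMIs as the ratio, so the trend is a description.

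Genes of later granules were found in more cells where S100a8 and S100a9 were higher, and the early granule gene Elane was found in most cells throughout. Camp, the cathelicidin of secondary granules, had a UMI in 7.69 and 8.11% of cells in the lowest range, 14.3 and 12.2% in the middle and 74.1 and 81.0% in the highest, at E13.5 and E14.5. For Lcn2, which encodes the iron-binding protein lipocalin, the shares were 7.69 and 2.70%, 28.6 and 26.5%, and 61.1 and 76.2%. Elane, stored in primary granules, was found in 85.7 to 97.96% of cells in every range. Split by Camp instead, S100a9 was at 12699 and 14432 CPM in the 56 and 27 cells with a Camp UMI, against 899 and 664 CPM in those without. The gap was smaller for S100a8, at 10148 and 10811 CPM against 1834 and 1680 CPM. Split by Elane, S100a9 was at 3334 and 1931 CPM in the 221 and 123 cells with a UMI, against 7625 and 35230 CPM in the few without.

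**Figure D3:**
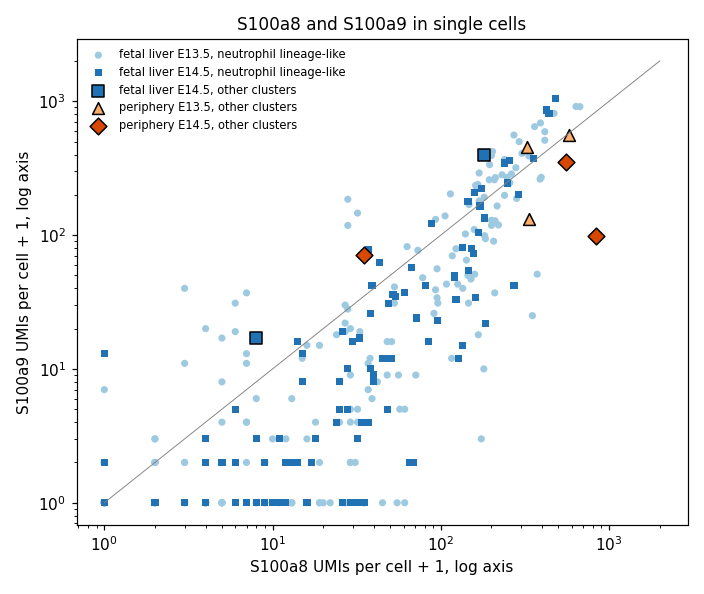
UMIs of S100a8 (x axis) and S100a9 (y axis) per cell, each plus 1 and on log axes, for the cells of FL15 and for cells of other clusters with 20 or more UMIs of both genes together. The grey line marks equal numbers. Cells of FL15 with few UMIs lie mostly below it, on the S100a8 side, and of those with 200 or more UMIs 33 of 54 and 11 of 21 lie above it.

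In periphery the same genes came from very few cells. At each stage 3 cells held 20 or more UMIs of both genes, and all of them fell in P10, a cluster with 10 of 11 monocyte or macrophage markers. With these cells left out, S100a8 was at 0.697 CPM (0.486 to 0.970) and 4.50 CPM (3.88 to 5.18), and S100a9 at 0.398 and 1.89 CPM. At E13.5 the 3 cells held 576 and 562, 322 and 453, and 331 and 132 UMIs of S100a8 and S100a9. The E14.5 cells held 551 and 348, 830 and 98, and 34 and 70. Every peripheral library value of these genes therefore rests on 3 cells.

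These cells differed among themselves. The E14.5 cell with 830 S100a8 UMIs had 244 UMIs of Lyz2, a lysozyme gene of the myeloid lineages, and no UMI of Camp or Ngp. The E14.5 cell with 551 S100a8 UMIs had 51 UMIs of Ngp, 27 of Camp and 79 of Retnlg, genes of late neutrophils. At E13.5, the cell with 322 had 16 of Camp and 75 of Retnlg. None of the 6 cells had a UMI of Mpo or Elane, which encode enzymes of primary granules. In the whole libraries all 5 primary granule genes measured were past 2-fold lower in periphery at both stages. Of all measured genes 10.5 and 11.4% were. Mpo and Prtn3 among the 5 also led fetal liver cluster FL5, which is outside FL15, so these folds are not those of neutrophil lineage-like cells alone.

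Other cells held few UMIs of both genes. Outside FL15 and the cells rich in both genes, fetal liver S100a8 was at 2.0 CPM (1.81 to 2.21) and 1.39 CPM (1.22 to 1.57). In E14.5 periphery 3.75% of LTi-like cells (median depth 8168 UMIs) and 6.15% of B lineage-like cells (19190) had an S100a8 UMI, against 0.407 and 0.334% at E13.5. The S100a8 tissue fold at E14.5, -0.12 with all cells, was -2.27 when the cells rich in both genes outside FL15 were left out, and the S100a9 fold went from -1.23 to -2.63. At E13.5 the folds of both genes went from -1.25 and -1.28 to -3.65 and -3.67.

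S100a4 was the gene with the most unequal level between tissues. Its level was 12.5 CPM (11.99 to 12.98) at E13.5 and 12.7 CPM (12.2 to 13.2) at E14.5 in fetal liver, and 235 CPM (230 to 239) and 532 CPM (525 to 539) in periphery. The tissue folds were 4.19, rank 32 from the top of 7986 genes, and 5.10, rank 7 of 8117. Between stages the folds were 0.05 in fetal liver and 0.94 in periphery, rank 126 of 7237. Shares of cells with a UMI were 15.3, 11.4, 68.1 and 85.3%. With each cell thinned to 3000 UMIs, and 198, 394, 134 and 222 shallower cells left out, they were 3.85, 3.85, 43.3 and 71.1%. For comparison, 10.2 and 16.4% of peripheral mast cell or basophil-like cells had a UMI before thinning, at median depths of 17261 and 14139 UMIs, against 88.5 and 95.1% of peripheral LTi-like cells at 10108 and 8168 UMIs.

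LTi-like cells carried most S100a4 in periphery and made up more of the later library. They were 41.2% of peripheral cells at E13.5, in clusters P0 and P8, and 74.1% at E14.5, in P6, P12 and P13, and 2.94 and 1.93% of fetal liver cells, in FL12. Within them S100a4 was at 379 CPM (370 to 388) and 665 CPM (656 to 675) in periphery, and at 156 CPM (144 to 169) and 223 CPM (203 to 244) in fetal liver. Stage folds were 0.57 and 0.47, both short of 2-fold, where 2.24% and 1.85% of measured genes passed and 0 of 4 S100 genes measured in either tissue did. The single clusters ran from 339 CPM in P8 and 408 CPM in P0 to 570, 632 and 749 CPM in P6, P12 and P13. With LTi-like cells left out, S100a4 in periphery was at 150 and 245 CPM, a fold of 0.49. That remainder still held P11 and P1, unnamed clusters with 10 and 9 of 11 LTi markers detected.

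Between tissues LTi-like cells still differed. The S100a4 folds within them were 1.65 at E13.5, where 21.4% of 7957 measured genes passed 2-fold, and 1.71 at E14.5, where 15.1% of 8097 did. Of the 4 measured S100 genes, S100a6 was the other past 2-fold at E13.5, at 1.12, and it was at 0.32 at E14.5. B lineage-like cells had S100a4 folds of 1.45 and 2.07, where 18.9 and 12.1% of measured genes passed. These folds rest on low levels, 4.29 and 6.99 CPM in fetal liver and 14 and 39.1 CPM in periphery. Mast cell or basophil-like cells were at 1.61 CPM in fetal liver and 16.5 CPM in periphery at E14.5. At E13.5 they were at 5.99 and 5.73 CPM. Whether RNA of other cells added to the low peripheral levels was not tested. The LTi marker list, with none of its 11 genes at 0, was at 118 and 115 CPM in fetal liver libraries against 2218 and 4371 CPM in periphery.

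Other innate lymphoid clusters also held S100a4. In periphery the unnamed clusters P3, P4 and P11, in which innate lymphoid progenitor markers were detected, were at 457, 274 and 375 CPM at E13.5 and at 693, 485 and 642 CPM at E14.5. In P11 10 of 11 LTi markers were detected too, as in LTi-like P0. Fetal liver FL11, an innate lymphoid progenitor-like cluster led by Ccl5 and Cxcl10, was at 97.1 and 189 CPM, next to FL12. Its companion FL10, led by Tcf7, was at 23.0 and 21.6 CPM. Stem and multipotent progenitor-like, lymphoid progenitor-like and neutrophil lineage-like cells were between 1.60 and 4.15 CPM at both stages.

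Innate lymphoid progenitor-like cells as a class were made of different clusters at each stage. S100a4 was at 33.8 and 93.3 CPM in them, a fold of 1.36, and 4 of 6 S100 genes passed 2-fold, where 2.14% of measured genes did. FL10 held 483 of the 606 cells at E13.5 and FL11 held 291 of the 533 at E14.5. By cluster, the S100a4 folds were -0.06 in FL10 and 0.93 in FL11, and the S100a6 folds -0.17 and 0.75, none past 2-fold, where 0.341 and 2.79% of measured genes passed. With at least 1000 genes per cell the class folds turned sign, to -0.15 for S100a4 and -0.26 for S100a6. The class folds of S100a8 and S100a9, 2.05 and 3.04, rested on 1 FL11 cell of E14.5 with 179 and 396 UMIs of them, and with 50 UMIs of Ngp and 75 of Camp. Without the cells rich in both genes they were -0.20 and -0.22.

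**Figure D4:**
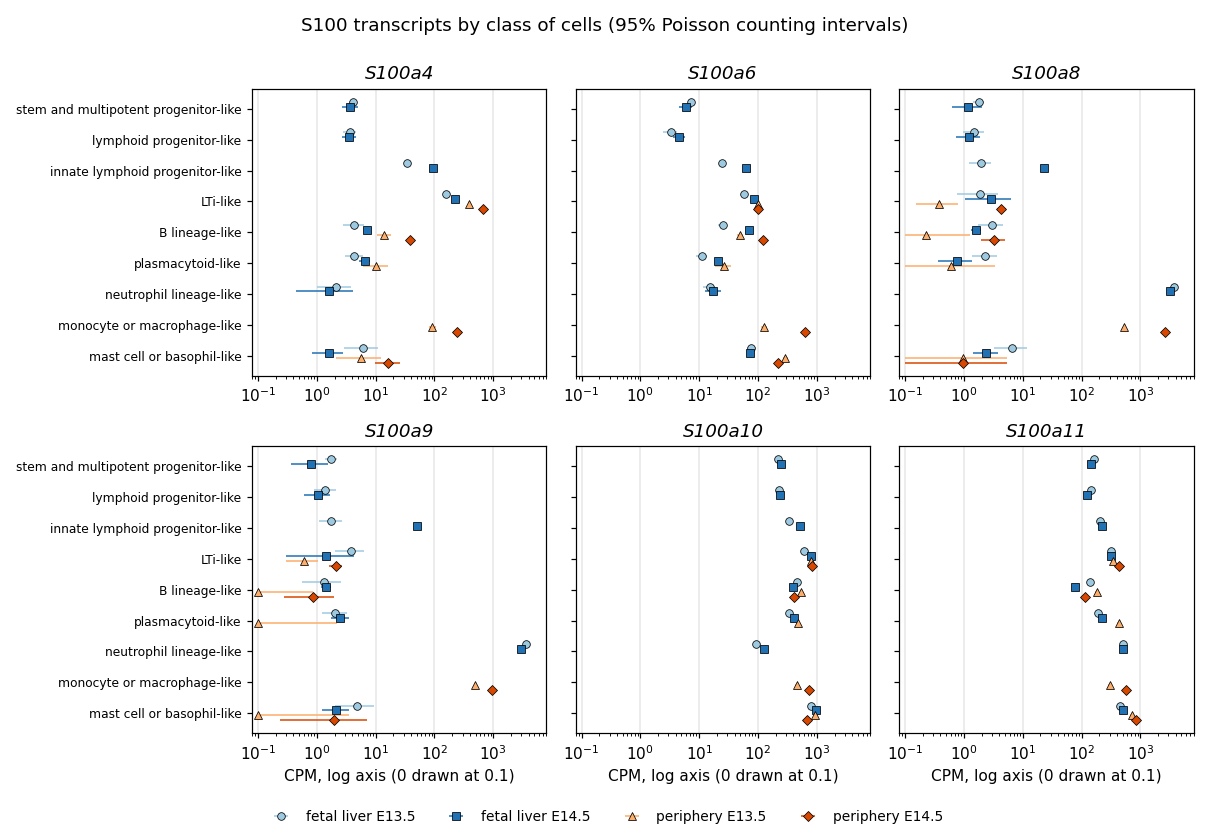
Level of each S100 gene (CPM, log axis, with 0 drawn at 0.1) in each named class with at least 50 cells in a library, with 95% Poisson intervals. S100a4 is highest in peripheral LTi-like cells (379 and 665 CPM), and S100a8 and S100a9 in fetal liver neutrophil lineage-like cells (2961 to 3698 CPM).

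S100a6 (calcyclin) was the 1 member past 2-fold between the fetal liver stages, and most of its UMIs there were in B lineage-like cells at E14.5. Its levels were 14.7 CPM (14.2 to 15.2) and 41.1 CPM (40.2 to 42.1) in fetal liver and 94.7 CPM (92.1 to 97.5) and 131 CPM (127 to 134) in periphery. The stage folds were 1.26 and 0.22, and the tissue folds 2.75 at E13.5 and 1.72 at E14.5. B lineage-like cells, named from Cd79a, Vpreb3, Igll1, Ebf1 and other markers, went from 4.53 to 40.0% of fetal liver cells. They held 5.22% of S100a6 UMIs at E13.5 and 69.6% at E14.5.

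Both the number of these cells and their level were higher at E14.5. Within fetal liver B lineage-like cells S100a6 was at 25.1 CPM (21.2 to 29.4) and 71.1 CPM (69.2 to 73.1), a fold of 1.37, where 1.79% of 7467 measured genes passed 2-fold and 1 of 3 measured S100 genes did. By cluster the values were 12.7 and 24.0 CPM in FL7 (fold 0.74), 36.5 and 175 CPM in FL8 (fold 2.10, with 0.627 and 1.42% of measured genes past 2-fold in FL7 and FL8), and at E14.5 106 CPM in FL13 and 18.2 CPM in FL17. FL13 and FL17 held 34 and 1 cells at E13.5 against 2247 and 423 at E14.5. With B lineage-like cells left out, S100a6 in fetal liver was at 14.4 and 20.9 CPM, a fold of 0.43.

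Peripheral B lineage-like cells had the same direction at a similar share of cells. They were 7.18 and 7.10% of cells, in cluster P7, and S100a6 was at 49.6 CPM (43.2 to 56.7) and 123 CPM (114 to 132), a fold of 1.08. Here 3.01% of measured genes passed 2-fold, and 2 of 4 measured S100 genes did. The other was S100a4, at 14 CPM (10.7 to 18) and 39.1 CPM (34.2 to 44.5), a fold of 1.06. Peripheral mast cell or basophil-like cells were at 5.73 and 16.5 CPM of S100a4, a fold of 0.89, and LTi-like cells at 379 and 665 CPM. Whether RNA of other cells added to the low levels was not tested. With at least 1000 genes per cell the S100a6 fold was 0.82, and with the S100 genes kept for clustering it was 1.68. S100a11 was lower at E14.5 in B lineage-like cells of both tissues, at 139 and 77.0 CPM in fetal liver and 181 and 114 CPM in periphery, folds of -0.78 and -0.80 that fell short of 2-fold. By cluster the fetal liver values were 147 and 93.4 CPM in FL7 (fold -0.60) and 129 and 160 CPM in FL8 (fold 0.28), so the direction was not shared.

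S100a6 was high in the myeloid classes of periphery. Mast cell or basophil-like cells were at 293 and 221 CPM in periphery and 76.6 and 74.3 CPM in fetal liver, and were highest of the named classes at E13.5 in both tissues, with an interval that overlapped that of LTi-like cells in fetal liver. Monocyte or macrophage-like cells of P10 were at 126 and 637 CPM, a fold of 2.12, where 8.7% of measured genes passed 2-fold, and 3 of 6 S100 genes did, S100a4, S100a6 and S100a8. The S100a8 call rests on the 3 cells per stage that held 99.5 and 99.4% of the cluster's UMIs of S100a8 and S100a9. The median depth over all P10 cells was 5385 UMIs at E13.5 and 1147 UMIs at E14.5, and the part of this in the S100a6 fold was not tested. LTi-like cells had similar S100a6 levels at both stages in periphery, 99.99 and 98.3 CPM, and 58.5 and 86.8 CPM in fetal liver. The lowest fetal liver levels were in lymphoid progenitor-like cells, at 3.26 and 4.50 CPM, the latter with an interval that overlapped that of stem and multipotent progenitor-like cells.

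S100a10, the annexin A2 partner, was found in nearly all cells. Its levels were 269 CPM (267 to 271) and 371 CPM (369 to 374) in fetal liver and 752 CPM (744 to 759) and 768 CPM (760 to 776) in periphery, with a UMI in 93.4 to 97.0% of cells. The stage folds were 0.49 and -0.20, and the tissue folds 1.88 and 1.21. After thinning to 3000 UMIs, 53.4, 64.4, 83.9 and 85.7% of cells had one.

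Among fetal liver classes, S100a10 was lowest where S100a8 and S100a9 were highest. Neutrophil lineage-like cells were at 92.0 CPM (83.6 to 101) and 126 CPM (113 to 141). Stem and multipotent progenitor-like cells were at 222 and 249 CPM, and lymphoid progenitor-like cells at 231 and 237 CPM. LTi-like cells were at 612 and 803 CPM in fetal liver, and their peripheral values of 800 and 814 CPM overlapped the E14.5 fetal liver interval of 765 to 843 CPM. Mast cell or basophil-like cells were highest in fetal liver, at 806 and 968 CPM. In periphery the monocyte or macrophage-like cells were highest for S100a8 and S100a9 at both stages. At E13.5 they were lowest of the named classes for S100a10, at 456 CPM (429 to 484), an interval that overlapped that of plasmacytoid-like cells. At E14.5 they were at 736 CPM of S100a10, and B lineage-like cells were lowest, at 410 CPM. In periphery the unnamed cluster P11, led by the antigen presentation genes H2-Aa and Cd74, was highest at both stages, with 1185 and 1075 CPM.

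S100a11, which binds annexins A1 and A2, followed another order. Its levels were 176 CPM (174 to 178) and 146 CPM (145 to 148) in fetal liver and 432 CPM (426 to 438) and 425 CPM (418 to 431) in periphery. Stage folds were -0.23 and -0.25 and tissue folds 1.68 and 1.67. Neutrophil lineage-like cells, lowest for S100a10, had the highest S100a11 level in fetal liver at E13.5, at 513 CPM (493 to 534), and were at 515 CPM (487 to 544) at E14.5. Mast cell or basophil-like cells were at 448 and 504 CPM (488 to 520 at E14.5, an interval that overlaps that of the neutrophil lineage-like cells), and led in periphery at 715 and 839 CPM. B lineage-like cells were lowest of the named classes in all 4 libraries, with an interval that overlapped that of lymphoid progenitor-like cells in E13.5 fetal liver. LTi-like cells were at 316 and 318 CPM in fetal liver and 346 and 438 CPM in periphery.

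**Figure D5:**
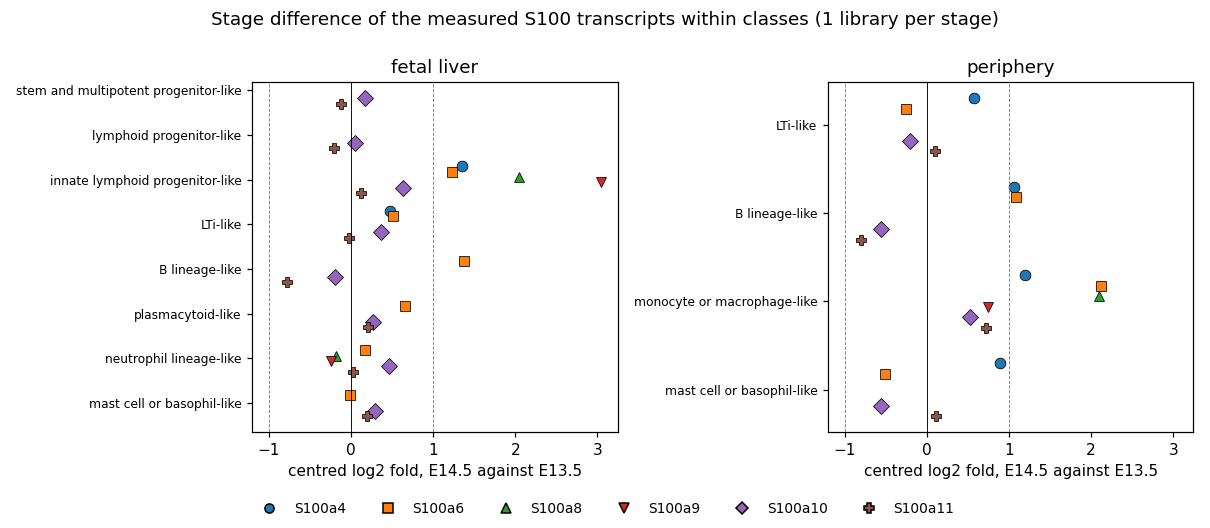
Log2 fold of E14.5 against E13.5 for each measured S100 gene within each named class, centred on the median of every measured gene, with dashed 2-fold lines. S100a6 lies past 2-fold in B lineage-like cells of both tissues (1.37 and 1.08), and S100a11 lies below 0 in both (-0.78 and -0.80).

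The annexin partners were followed from a list of 12. Anxa2 was at 11.1 and 34.2 CPM in fetal liver and 49.0 and 65.0 CPM in periphery, and was the single annexin of 8 measured to pass 2-fold between fetal liver stages (1.32), where 1.63% of measured genes did. Between tissues 3 of 8 annexins passed higher at each stage, namely Anxa2, Anxa5 and Anxa6, and Anxa1 passed lower at E14.5 (-1.36). Of all measured genes 12.6 and 12.3% passed higher, and 11.4% passed lower at E14.5. Across class values, S100a11 correlated with Anxa2 at r = 0.83 over 16 fetal liver and 0.92 over 9 peripheral values, against 0.44 and 0.55 for S100a10 and 0.64 and 0.67 for S100a6. With Anxa1 the values were 0.67 and 0.44 for S100a11, -0.10 and 0.23 for S100a10, and 0.23 and 0.76 for S100a6. Anxa2 itself was at 497 and 635 CPM in fetal liver mast cell or basophil-like cells and at 0.825 and 0.723 CPM in B lineage-like cells, where S100a10 was at 458 and 391 CPM. These correlations are over classes that share libraries and depth, and carry no test.

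Transcripts of receptors known for S100A8 and S100A9, listed with the adaptor gene Myd88, ranged widely in level. Of 8 genes, Tlr4 was at 0.520 to 1.66 CPM and Ager, the gene of RAGE, at 0.591 to 1.15 CPM in the 4 libraries. Bsg and Emb, which encode the surface proteins basigin and embigin, were at 440 to 471 and 350 to 532 CPM. Ly96, the gene of the TLR4 partner MD-2, was the 1 listed gene past 2-fold between tissues, at 1.5 and 1.55, of 4 and 5 measured. Of all measured genes 12.6 and 12.3% passed higher. Between stages 0 of 3 measured in fetal liver and 0 of 5 in periphery passed, where 1.63 and 3.77% of measured genes did.

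For each gene the 3 others most like it in log level were taken across the class values of both tissues, by the lower of the 2 correlations over 8291 genes. The genes most like S100a4 included Serpina3g (0.98 and 0.98) and Tox2 (0.99 and 0.96). S100a8 and S100a9 were most like each other (0.99 and 0.99), with Gm5483 and Stfa3 next for S100a8, and Lcn2 and Stfa3 for S100a9. Both genes were far higher in 1 class of each tissue, FL15 in fetal liver and P10 in periphery, so these correlations rest mostly on that class. In P10, 3 cells per stage held 99.5 and 99.4% of the UMIs of both genes. S100a11 came with Atp6v0e (0.94 and 0.96), Myo1f and Myl12b, and S100a10 with Rhof (0.85 and 0.84), Il2rg and Slc9a3r1. S100a6 had the lowest likeness, and its genes included Ndfip1 (0.82 and 0.78) and H2-D1. Among the 6 genes S100a4 and S100a6 correlated at 0.55 and 0.21, and S100a10 and S100a11 at 0.07 and 0.70, each in fetal liver and periphery.

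Several classes had no S100 gene past 2-fold between stages. In fetal liver these were stem and multipotent progenitor-like (0 of 2 measured) and lymphoid progenitor-like cells (0 of 2), where 0.119 and 0.224% of measured genes passed, and plasmacytoid-like (0 of 3) and mast cell or basophil-like cells (0 of 3), where 0.725 and 0.978% passed. LTi-like (0 of 4) and neutrophil lineage-like cells (0 of 5) of fetal liver had none either, where 1.85 and 0.604% passed. In periphery these were mast cell or basophil-like cells (0 of 4), where 5.35% passed, and LTi-like cells (0 of 4), where 2.24% did.

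Of 10 other S100 genes, S100a13 was highest at 43.1, 52.0, 154 and 222 CPM, and was past 2-fold higher in periphery at both stages (2.14 and 2.16), where 12.6 and 12.3% of measured genes were. S100a1 was at 4.37, 4.74, 17.5 and 22.4 CPM, with folds of 1.68 and 1.66. S100a3, the neighbour of S100a4, was at 0.530 and 0.481 CPM in fetal liver and 14.02 and 9.84 CPM in periphery. The other 7 were at 2.63 CPM or less in all libraries. Of 12 cytoskeletal and effector lymphocyte genes, Lgals3 and Crip1 passed 2-fold higher between fetal liver stages (1.33 and 1.38), like S100a6, of 11 measured, and 0 of 11 passed in periphery, where 1.63 and 3.77% of measured genes passed.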

How the data were processed

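The files deposited by the authors are matrices of raw UMI counts, genes by barcodes. Cell Ranger (version 3 in the submitters' processing notes, per the file headers 3.0.0 in fetal liver and 3.0.1 in periphery) and the build mm10 were used. At E13.5 the deposited totals were 212034840 UMIs in fetal liver and 53229734 in periphery, and at E14.5 they were 208229937 and 44599592. The feature lists hold 31053 and 28427 genes, of which 27566 are shared by Ensembl ID.

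Barcodes under 500 genes or over 10% mitochondrial UMIs were dropped. Doublets marked by Scrublet were left out: 378 and 934 in fetal liver by its automatic threshold, and 140 and 151 in periphery at an expected rate of 0.8% per 1000 barcodes, since the threshold marked under 0.5% there. Cells of each tissue were clustered with scanpy 1.11.5 (2000 variable genes, 30 principal components, 15 neighbours, Leiden resolution 1), leaving out the S100 family, haemoglobin, mitochondrial, ribosomal and cell-cycle genes. Clusters were named from 19 marker sets, by a rule settled after the clusters had been seen: at least 3 and over 50% of a set's genes detected (20 CPM or more), and no more leading genes from another set. A cluster failing this stayed unnamed.

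UMIs were summed per library, class or cluster of at least 50 cells and scaled to CPM. Shares of cells carry exact Clopper-Pearson intervals, which reflect counting error alone, as the Poisson intervals do. No p-value was computed, since each group is 1 library, and cells were not used as replicates. The fold calculation was tested on simulated data. Gene names were the 6 members, genes of the partner lists, the 3 genes most like each member, and markers of a class where it is described. Some genes that this rule gives are not reported here. Members and lists were chosen with earlier results of these data known. Alternatives covered the pseudocount, the low-value filter, centring, TMM factors (edgeR 4.0.16), the total used, cell weighting, cell filters, doublets and clustering resolution. Leaving out 1 class, or the 8 cells rich in S100a8 and S100a9 outside FL15, was added after seeing the data.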

Additional observations from a re-analysis of the deposited data

Results flagged for a closer look

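Between stages, 2 of the 6 genes had folds of opposite sign in the tissues. S100a8 was lower at E14.5 in fetal liver (-0.83) and higher in periphery (0.28). S100a10 was higher at E14.5 in fetal liver (0.49) and lower in periphery (-0.20). None of these folds passed 2-fold, and with 1 library per group the differences between tissues were not tested. The peripheral S100a8 values rest on 3 cells in each library.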

How the results depend on the processing

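No paired analysis was possible because each group is 1 library. The limits are the absence of replicates, the tie of kit to tissue, the rebuilt cell classes, and, for S100a8 and S100a9 in periphery, 3 cells per library. In fetal liver between stages, 126 genes passed 2-fold, against 192 with 1 CPM added, 58 with 20 CPM added and 63 at a minimum of 50 CPM. The S100 count there was 1 (S100a6) and became 0 with 20 CPM added, at a minimum of 50 CPM, and without B lineage-like cells. In periphery between stages the 273 genes became 112 with 20 CPM added and 147 at 50 CPM. The S100 count of 0 there became 1 in 6 settings: S100a4 with no filter, at 50 CPM, without centring, or without B lineage-like cells; S100a9 with at least 1000 genes per cell; and S100a8 without LTi-like cells. Between tissues the 1844 genes at E13.5 became 966 with 20 CPM added and 997 at 50 CPM, and the 1925 at E14.5 became 1008 and 1007. Folds of innate lymphoid progenitor-like cells in fetal liver reversed. At resolution 0.5, S100a8 was at -0.15 and S100a9 at -0.26. With at least 1000 genes per cell, S100a4, S100a6, S100a8 and S100a9 were at -0.15, -0.26, -0.32 and -0.022. Without the cells rich in both, S100a8 and S100a9 were at -0.20 and -0.22, as 1 cell carried them; for the other settings the cause was not tested. At resolution 0.5 no fetal liver class was named LTi-like or stem and multipotent progenitor-like, so those values are missing. Of other single values, 969 stayed within their counting interval and 445 moved beyond it with no change of sign where called.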
